A study of Mus musculus with 16 samples.

Results

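Broad multi-summit regions are stretches of open chromatin that the peak caller joined into 1 interval although it placed 5 or more separate summits, the points of highest signal, within it. They were taken from ATAC-seq peak lists of wild-type (WT) mouse hematopoietic stem and progenitor cells (HSPCs): a region was a member when the lists of both WT replicate 3 and WT replicate 4 held such an interval on chromosomes 1 to 19 and the intervals overlapped. This gave 677 members of 109045 regions that had an interval in both lists. The summit numbers of these lists therefore chose the members, and values of WT replicates 3 and 4 are given as a description only.

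The series asked how loss of p300 alters HSPCs with and without TET2, and ATAC-seq was made from 16 libraries, 4 for each of WT, P300KO, TET2KO and P300KO_TET2KO. According to the study's methods, all mice carried floxed Ep300 alleles and received poly(I:C). WT mice had no Cre, P300KO mice carried Mx1-Cre (driven by an interferon-inducible promoter that is not restricted to HSPCs), TET2KO mice were Tet2-/- without Cre, and P300KO_TET2KO mice were Tet2-/- with Mx1-Cre. Each library came from cells of a pair of age-matched mice that were pooled, and the age at sampling is not given in the labels. Replicates 1-2 and replicates 3-4 form 2 deposit sets, which the labels tell apart by the mention of a merged peak file for the first set only. In the first set the lists held 84704 to 108200 autosomal intervals, and in the second 127437 to 134268. Depth per library is unknown, since peak lists hold no read totals, and a set and a sequencing depth cannot be told apart. The list of WT replicate 1 stood apart with the lowest mean summit number (1.23 per interval) and the lowest mean width (324 bp). All 8 HSPC markers examined, among them Kit, Cd34 and Gata2, had a WT interval within 3 kb of a start. So did all autosomal markers of erythroid and megakaryocytic (6), lymphoid (7) and granulocytic cells (6), while Alb, Ttr and Ins2, of the 6 autosomal markers of tissues outside blood, had none. Accessibility in a few cells and low accessibility in all cells cannot be told apart in such lists.

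ATAC-seq marks DNA that the transposase Tn5 can enter, mostly promoters and enhancers that are kept free of nucleosomes. Promoters with many CpG dinucleotides, called CpG islands, are typical of widely expressed genes and of developmental regulators, and are usually open. p300 is a coactivator that acetylates histones at enhancers and promoters, and TET2 oxidizes 5-methylcytosine and so takes part in removing DNA methylation.

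The sequences under the summits show the type of DNA these regions hold. For 5 promoter members and 2 distal members, the 201 bases around the strongest WT replicate 3 summit whose window lay outside every annotated exon are printed 5′ to 3′ on the plus strand of GRCm38.p6, the RefSeq copy of mm10. Capitals mark any of 8 strings searched on both strands. The string CCGGAAG was searched for Ets factors. The GC box was searched as GGGCGG, which Sp and Klf factors can bind. The CCAAT box was searched by its own letters. The core of the NRF1 site was taken as GCGCATGC and the cAMP response element as TGACGTCA. The E-box was taken as CACGTG, the site of Myc, Usf and related factors. For Runx factors the string was TGTGGT, as in many blood enhancers. For Gata factors it was AGATAA. None of these strings holds another. Cux1 and Setd7 are shown for their 8 summits in both WT lists, Rreb1 for its 10, Runx1 and Fli1 as HSPC transcription factors, and the regions nearest Aqp11 and Commd3 as distal members. The windows lie at chr5:136567862-136568062 (Cux1), chr3:51559673-51559873 (Setd7), chr13:37826426-37826626 (Rreb1), chr16:92697332-92697532 (Runx1), chr9:32540136-32540336 (Fli1), chr7:97748980-97749180 (nearest Aqp11) and chr2:18608892-18609092 (nearest Commd3).
Cux1: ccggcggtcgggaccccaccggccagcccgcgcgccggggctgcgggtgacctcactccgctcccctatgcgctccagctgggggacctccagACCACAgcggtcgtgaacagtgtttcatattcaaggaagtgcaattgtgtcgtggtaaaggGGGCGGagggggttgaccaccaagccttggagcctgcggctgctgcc
Setd7: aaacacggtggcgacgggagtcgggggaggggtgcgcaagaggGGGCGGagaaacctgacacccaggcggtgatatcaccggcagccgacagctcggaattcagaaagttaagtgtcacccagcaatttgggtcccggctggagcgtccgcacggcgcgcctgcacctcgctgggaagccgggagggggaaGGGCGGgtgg
Rreb1: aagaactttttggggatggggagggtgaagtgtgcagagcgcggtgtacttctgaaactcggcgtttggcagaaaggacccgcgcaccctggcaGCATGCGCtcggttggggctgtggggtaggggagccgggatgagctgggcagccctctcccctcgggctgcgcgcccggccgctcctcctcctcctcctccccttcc
Runx1: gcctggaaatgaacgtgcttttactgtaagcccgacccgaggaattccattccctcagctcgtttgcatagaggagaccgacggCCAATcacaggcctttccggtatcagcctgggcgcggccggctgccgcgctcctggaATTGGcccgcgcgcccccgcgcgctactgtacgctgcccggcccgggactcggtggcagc
Fli1: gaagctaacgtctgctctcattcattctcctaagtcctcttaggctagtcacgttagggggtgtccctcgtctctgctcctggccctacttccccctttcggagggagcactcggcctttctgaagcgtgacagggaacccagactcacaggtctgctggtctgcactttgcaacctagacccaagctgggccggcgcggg
nearest Aqp11: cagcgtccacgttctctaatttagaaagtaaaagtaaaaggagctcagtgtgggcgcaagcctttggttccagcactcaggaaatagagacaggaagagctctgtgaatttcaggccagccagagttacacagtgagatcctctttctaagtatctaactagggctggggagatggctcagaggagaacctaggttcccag
nearest Commd3: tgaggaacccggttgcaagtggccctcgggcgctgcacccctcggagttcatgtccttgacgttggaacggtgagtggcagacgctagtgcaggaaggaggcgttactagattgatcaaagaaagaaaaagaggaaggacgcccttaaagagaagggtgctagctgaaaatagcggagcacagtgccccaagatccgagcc
The Runx1 window held 22 CpG dinucleotides, the Setd7 window 19, the Cux1 window 16 and the Rreb1 window 14. The Fli1 window held 9, and the distal windows held 11 (nearest Commd3) and 3 (nearest Aqp11). GC boxes stood in the Setd7 window (2) and the Cux1 window (1), CCAAT boxes in the Runx1 window (2) and the NRF1 core in the Rreb1 window (1). The Cux1 window also held the Runx string (1). A match is a string of letters and not a bound site.

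The broad regions lay almost entirely at promoters. Of the 677 members, 615 (90.8%) came within 3 kb of an annotated transcription start and 566 (83.6%) held the start of a protein-coding gene, against 36.01% and 14.3% of all WT regions. The share rose with every added summit. It was 28.9% for regions whose smaller WT summit number was 1, 47.6% for 2, 70.9% for 3, 85.4% for 4, 90% for 5, 91.8% for 6 and 100% for the 35 regions with 7 or more. Width rose along with it, from a median of 344 bp at 1 summit to 1327 bp at 4, 1608 bp at 5 and 2091 bp at 7 or more, and the median over the members was 1665 bp (quartiles 1475 and 1858). Among regions of like width (1475 to 1855 bp), 91.2% of 339 members and 85.6% of 611 regions with at most 4 summits were within 3 kb of a start.

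**Figure D1:**
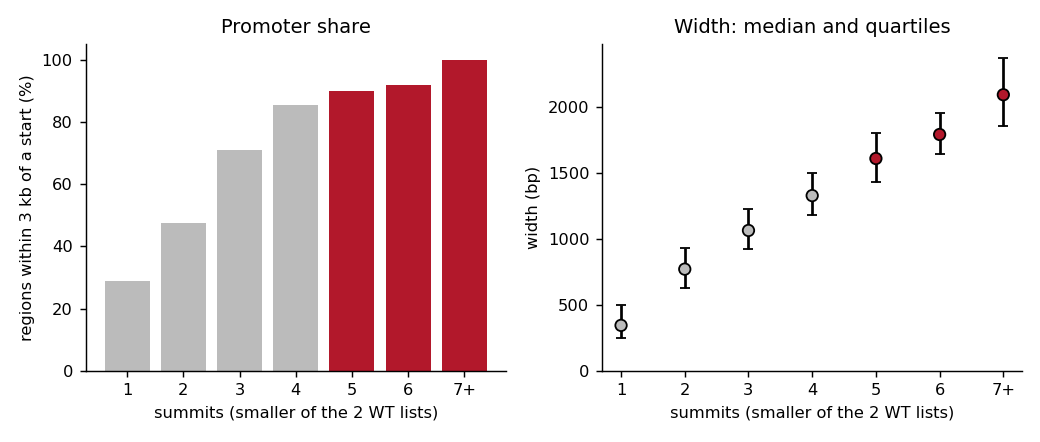
Share of WT regions within 3 kb of a transcription start (left, percent) and their width in bp (right, points are medians and bars quartiles), by the smaller of the summit numbers in the WT replicate 3 and 4 lists, with the broad regions in red. Both values climb from the 80925 regions with 1 summit (28.9%, 344 bp) to the 35 with 7 or more (100%, 2091 bp).

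The threshold cut through a gradual decline. WT replicate 3 had 1121 intervals with 5 or more summits and WT replicate 4 had 1279, of which 677 matched each other (60.4% and 52.9%). Of the unmatched ones, 268 in WT replicate 3 and 336 in WT replicate 4 met an interval with 4 summits in the other list, just below the limit. Both WT lists gave the same summit number for 440 members (65.0%), differed by 1 for 208 (30.7%) and by 2 or more for 29 (4.28%). Just inside the limit stood 520 members with 5 summits as the smaller number, and just outside it 1886 regions with 4.

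Starts on both strands, from different coding genes, were more frequent in regions with more summits. Whether such starts point away from each other was not examined. Starts of protein-coding genes on both strands lay in 88 members. Among the 566 members that held a coding start the share was 15.5%, against 2.84%, 6.53%, 11.1% and 12.4% of the regions with 1, 2, 3 and 4 summits that held one. Examples are Cbx3 with Hnrnpa2b1 and Hnrnpk with Rmi1, pairs in which the hnRNP gene encodes an RNA-binding protein. The number of annotated transcript starts inside a region also rose, from a mean of 2.18 at 1 summit to 3.98 in the members. Wider regions can hold more starts, and these shares were not adjusted for width.

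The regions were asymmetric about the start. In 416 members with exactly 1 principal coding start, the region reached a median of 624.5 bp upstream (quartiles 393 and 895) and 1034 bp downstream (789 and 1310), and 72.8% reached further into the gene than away from it. In the 6 knockout lists of replicates 3-4, which took no part in choosing the members, 60.2% of the summits in these members lay downstream. Regions with 2 and with 4 summits were asymmetric in the same direction (71.4% and 72.2% reached further downstream, 55.4% and 57.9% of summits downstream). The summit profile of the members had a first peak in the bin from 100 bp upstream to the start (0.519 summits per region and list), a trough centred 150 bp downstream (0.152) and a second peak centred 250 bp downstream (0.445). Regions with 4 summits had the same shape (0.565, 0.137 and 0.459), as had those with 2 (0.536, 0.115 and 0.357). The strongest summit of a member lay at a median of -37.5 to -17.5 bp from the start in the 16 lists, where negative values are upstream, but it was within 100 bp of the start in 42.8% to 49.8% of the members only.

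**Figure D2:**
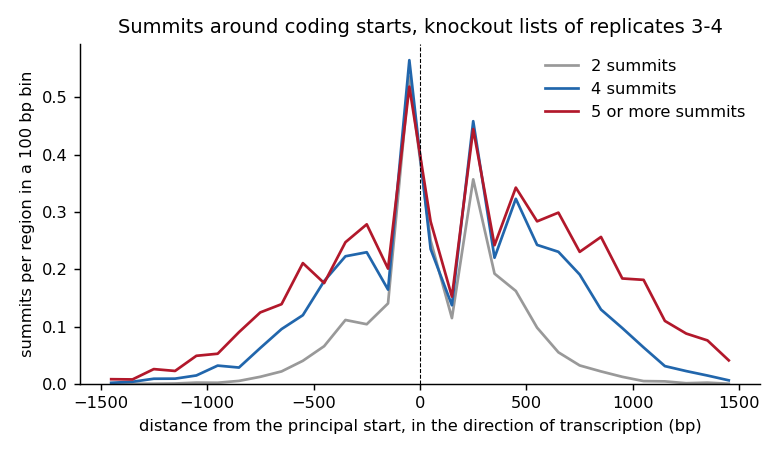
Summits per region in 100 bp bins, by distance in bp from the principal coding start, for regions with 2, 4 and 5 or more summits, as a mean over the 6 knockout lists of replicates 3-4. In the regions with 5 or more summits the curve peaks just upstream of the start (0.519) and again 250 bp downstream (0.445), with a trough of 0.152 between, and falls more slowly on the downstream side. The curves for 4 summits (0.565, 0.459 and 0.137) and 2 summits (0.536, 0.357 and 0.115) have the same peaks and trough.

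The median gap between neighbouring summits of intervals with 5 or more was 259 to 274 bp in the 16 lists, and 260 to 279 bp in intervals with 2 to 4. Within a list the gaps of the former varied, with lower quartiles of 218 to 233 bp and upper quartiles of 323 to 337 bp. The summits kept their places between libraries. In the 6 knockout lists of replicates 3-4, 91.3% to 92.4% of the summits inside members lay within 50 bp of a summit of WT replicate 3, with a median distance of 8 or 9 bp. In WT replicate 4 the share was 91.4%, and in replicates 1-2 it ranged from 78.8% (WT replicate 1) to 88.8% (P300KO_TET2KO replicate 2). Cux1, which encodes a homeodomain transcription factor, had 8 summits within the member in all 16 lists. Counted from the principal start, with negative values upstream, the first summit lay at -804 to -779 bp in the 16 lists, the fourth at 109 to 126 bp and the eighth at 1022 to 1050 bp.

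Promoter members were rich in CpG dinucleotides, as CpG islands are, and distal members less so. The 615 promoter members had a median of 62.9% G and C bases and a CpG content of 0.757 of that expected from base composition. Promoter regions with 4 summits had 61.7% and 0.734, those with 1 summit 51.5% and 0.256. The ratio was at or above 0.6 in 81.6% of promoter members and in 15.7% of promoter regions with 1 summit. The 62 distal members had 51.5% G and C and a ratio of 0.357, against 48.6% and 0.198 for distal regions with 1 summit.

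**Figure D3:**
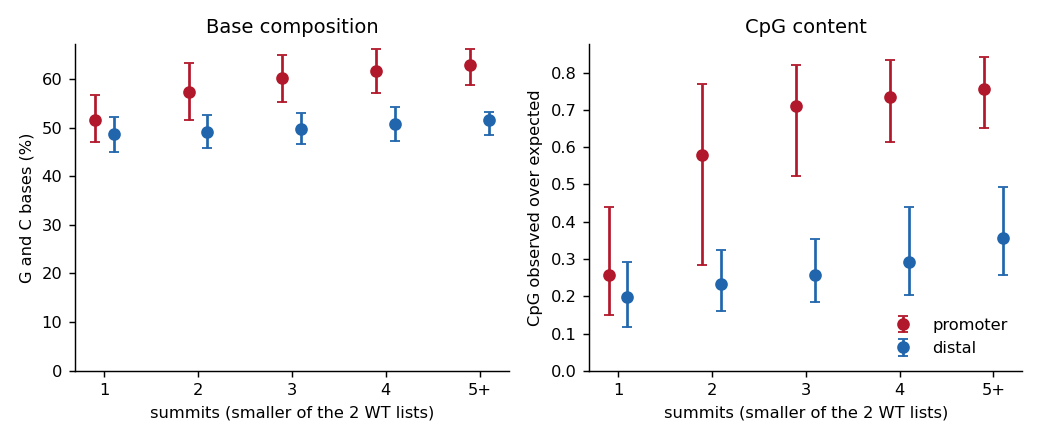
G and C bases (left, percent) and CpG observed over expected (right) of WT regions by summit number, with medians as points and quartiles as bars, for promoter (red) and distal (blue) regions. Promoter regions climb from a ratio of 0.256 at 1 summit to 0.757 at 5 or more, and distal regions from 0.198 to 0.357.

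A GC box stood in 43.6% of the 3366 windows of 201 bases around promoter summits of members, in 29.4% of the 70267 windows around other promoter summits and in 16.3% of all 181551 windows in the WT replicate 3 list. The Runx string stood in 8.20%, 16.6% and 22.7%, and the Gata string in 3.71%, 5.71% and 8.17%. For the Ets string the shares were 6.03%, 5.35% and 3.34%, for the NRF1 core 1.46%, 1.32% and 0.797%, for the E-box 5.85%, 5.25% and 4.43%, for the cAMP response element 0.862%, 0.932% and 0.557%, and for the CCAAT box 17.1%, 20.02% and 19.8%. Promoter and distal were told apart here by the place of each summit, not of its member. Among the 375 windows around distal summits of members, 12.5% held the GC box, 18.4% the Runx string, 7.20% the Gata string and 21.6% the CCAAT box. The shares were 6.82%, 27.1%, 9.92% and 19.7% of the 107543 windows around other distal summits. The part of base composition in these shares was not tested.

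Of 20780 autosomal protein-coding genes, 698 (3.36%) had a member within 3 kb of a start, or 4.34% of the 16098 genes with any WT interval there. Of 25 HSPC transcription factors, 3 had one: Fli1, Cebpa and Runx1, which drive megakaryocytic, granulocytic and definitive blood formation. None of 20 HSPC surface and cytokine receptors, 21 Hoxa and Hoxb genes, 14 erythroid and megakaryocyte markers, 17 lymphocyte markers or 15 granulocyte and macrophage markers had one, although all of these genes had a WT interval. In lists of this size the share over all genes would give about 1 gene or less, so nothing is read from a count of 0. Of 27 immediate early and feedback genes, 3 had one (Atf3, a stress-induced transcription factor, Dusp1, a phosphatase of MAP kinases, and Ier5). The chromatin regulators contributed 3 of 21 (Nsd1, an H3K36 methyltransferase, Tet1, a 5-methylcytosine dioxygenase, and Kmt2d, an H3K4 methyltransferase). RNA processing factors with a member included Hnrnpa2b1, Hnrnpa1 and Hnrnpk, which encode hnRNP proteins. Ribosomal protein genes contributed 1 of 73 (Rpl7), replication-dependent histone genes 10 of 67, and genes of tissues outside blood 0 of 11. Histone genes lie in clusters of similar sequence where the aligner can place reads at more than 1 copy, and several of them share a member. At the member that holds starts of Bola1, Hist2h2ab, Hist2h2ac and Hist2h2be the widest interval had 7 and 8 summits in WT replicates 3 and 4.

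The 12 members named for their summits were ranked by the smaller WT summit number and, among ties, by the mean width of the WT intervals, so that others of the 35 members with 7 or more are not named. Rreb1, a zinc finger factor of Ras signalling, and Nr3c1, the glucocorticoid receptor gene, had the highest smaller number, 10. The Rreb1 member had 2900 bp at chr13:37825123-37828022. Its widest interval had 2, 6, 10 and 10 summits in WT replicates 1 to 4, 12, 8, 11 and 7 in P300KO, 8, 9, 9 and 10 in TET2KO, and 9, 7, 9 and 11 in P300KO_TET2KO. WT replicates 1 and 2 were below all other lists there by this measure. Within the bounds of the member the WT lists held 6, 10, 10 and 10 summits, so the value of WT replicate 2 was one of splitting, and all genotypes overlapped. Nr3c1 had 10 summits in every list except WT replicate 1 (4, and 6 within the bounds of the member) and TET2KO replicate 3 (9). The widest member, 3439 bp, lay at Ppp2r3d, a regulatory subunit gene of protein phosphatase 2A. It had 9, 10, 9 and 10 summits in WT, 7, 6, 10 and 6 in P300KO, 9, 10, 9 and 10 in TET2KO, and 10, 9, 10 and 10 in P300KO_TET2KO. P300KO replicates 1, 2 and 4 were below every other list there, but within the bounds of the member the P300KO lists held 10, 10, 10 and 9 summits, so these low values were split intervals. The widest interval at Setd7, a lysine methyltransferase gene, had 8 summits in every list except WT replicate 1 (6) and P300KO replicate 2 (5). Within the bounds of the Setd7 member each of these lists held 7. The others of the 12 leading members lay at Cux1, the Bola1 cluster, Dach1, Crlf2, Pfn1, Stat6, Nsd1 and Ppp3ca, with smaller WT summit numbers of 7 or 8.

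Among the HSPC factors, Cebpa had 4, 6, 5 and 5 summits in WT, 5 in all P300KO and all TET2KO lists, and 6, 5, 5 and 5 in P300KO_TET2KO. Runx1 had 7, 5, 5 and 6 in WT, 5, 6, 6 and 4 in P300KO, 4, 5, 6 and 6 in TET2KO, and 6, 5, 6 and 6 in P300KO_TET2KO. Fli1 had 1, 5, 6 and 6 in WT, 6, 4, 6 and 3 in P300KO, 5, 6, 6 and 6 in TET2KO, and 4, 5, 7 and 5 in P300KO_TET2KO. Within the bounds of the Fli1 member WT held 3, 6, 6 and 6 summits and P300KO 6, 6, 6 and 5. There TET2KO held 5, 6, 6 and 6, and P300KO_TET2KO 6, 5, 7 and 5. The 4 genotypes overlapped at all of these.

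**Figure D4:**
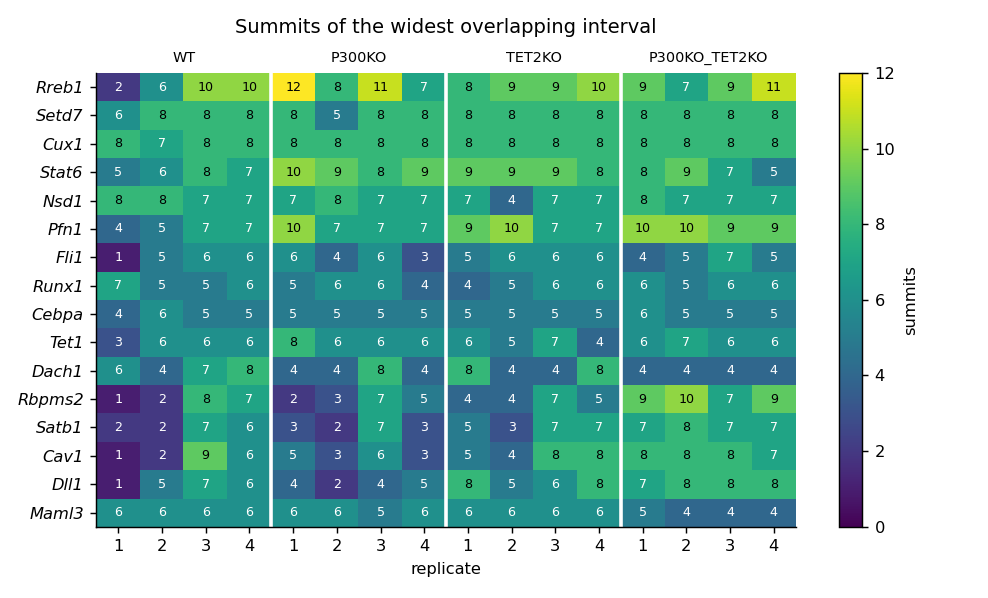
Summits of the widest interval that overlaps each of 16 named members, for replicates 1 to 4 of the 4 genotypes, with the colour scale from 0 to 12 summits. Cux1 and Cebpa are nearly even across lists (7 to 8 and 4 to 6 summits). Maml3 is lowest in P300KO_TET2KO (5, 4, 4 and 4). Rbpms2, Satb1 and Cav1 are low in WT replicates 1 and 2 (1 or 2 summits). Rbpms2 and Satb1 are also low in P300KO replicates 1 and 2 (2 or 3 summits). Within the bounds of the members, WT replicates 1 and 2 held 4 and 6 summits at Rbpms2, 5 and 3 at Satb1 and 2 and 3 at Cav1.

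The regions were found in every genotype. An interval overlapped 659 members (97.3%) in all 16 lists, and the share found ranged from 97.8% (WT replicate 1) to 100%. In the 6 knockout lists of replicates 3-4, 332 members (49.0%) kept 5 or more summits in all 6 and 10 (1.48%) in none. In the 8 lists of replicates 1-2, 81 (11.96%) had 5 or more in all and 52 (7.68%) in none. For distal members the mean over the knockout lists of replicates 3-4 was 4.72 summits against 5.27 for promoter members, and over replicates 1-2 it was 3.49 against 4.61. The same rule applied to each genotype of replicates 3-4 gave 677 WT regions, 697 for P300KO, 822 for TET2KO and 993 for P300KO_TET2KO. Of the P300KO regions 434 overlapped members (62.3% of them, 64.1% of members), of the TET2KO regions 464 (56.4%, 68.5%) and of the P300KO_TET2KO regions 502 (50.6%, 74.2%). Applied to replicates 1-2, it gave 205 WT regions, 539 for P300KO, 429 for TET2KO and 974 for P300KO_TET2KO.

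In replicates 3-4 the mean summit number per member, taken from the widest overlapping interval, was 5.49 and 5.51 in the WT lists that chose the members. It was 5.30 and 4.93 in P300KO, 5.20 and 5.25 in TET2KO, and 5.30 and 5.35 in P300KO_TET2KO. Mean widths were 1642 and 1644 bp in WT, 1598 and 1493 bp in P300KO, 1579 and 1593 bp in TET2KO, and 1623 bp in both P300KO_TET2KO lists. All knockout lists were lower than both WT lists, but the WT values are those the members were selected on, and no test was made. P300KO replicate 4 was the lowest of the 6 knockout lists in both measures. In replicates 1-2 mean summit numbers were 3.29 and 4.17 in WT, 4.95 and 4.23 in P300KO, 4.73 and 4.37 in TET2KO, and 5.06 and 5.24 in P300KO_TET2KO. There WT replicate 1 was lowest and both P300KO_TET2KO lists were above all others. Mean widths in the same order were 1020.2 and 1319 bp, 1501.3 and 1289 bp, 1478 and 1386 bp, and 1585 and 1633 bp.

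**Figure D5:**
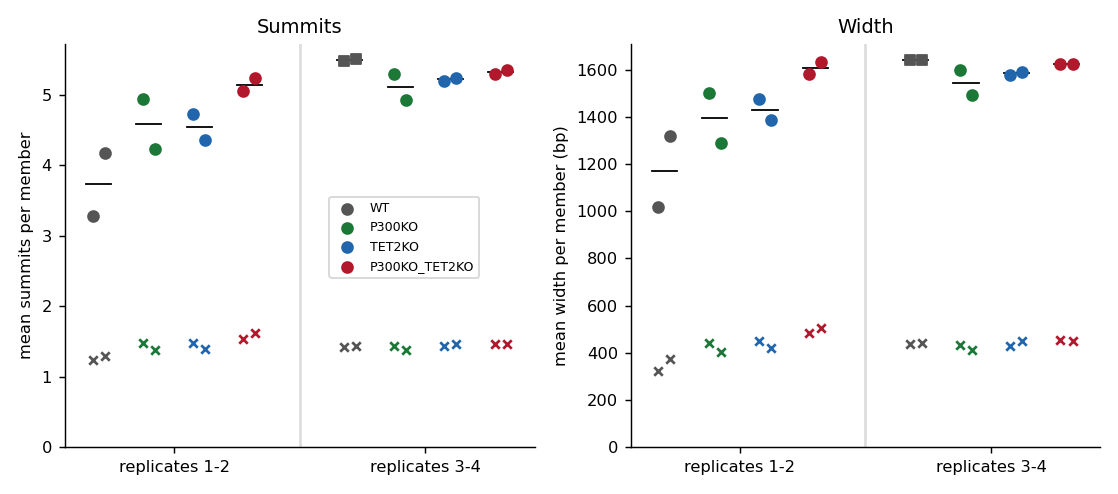
Mean summits (left) and mean width in bp (right) per member in each library (dots, squares for the WT lists that chose the members, lines for the mean of each pair), with the mean over all autosomal intervals of the same list as crosses. P300KO_TET2KO lies above TET2KO and P300KO in both sets (5.06 and 5.24 summits in replicates 1-2, 5.30 and 5.35 in replicates 3-4), and the crosses move in the same direction. The gap in summits to P300KO replicate 3 is slight (5.304 against 5.298).

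Loss of p300 went with more summits and wider intervals at these regions, and so did loss of TET2, on the deposited scale. The tests compared libraries within set and background and left out WT replicates 3 and 4: a mean of 3 differences for p300 (P300KO_TET2KO minus TET2KO in each set, P300KO minus WT in replicates 1-2) and of 3 for TET2 (P300KO_TET2KO minus P300KO in each set, TET2KO minus WT in replicates 1-2). The p300 difference was 0.521 summits (two-sided exact permutation test, p = 0.00926, Benjamini-Hochberg adjusted over 4 tests p = 0.0123) and 147 bp (p = 0.0185, exact permutation, adjusted p = 0.0185). The TET2 difference was 0.530 summits and 184 bp (exact permutation, p = 0.00926 and adjusted p = 0.0123 for both), and 0.00926 is the smallest p that the 216 arrangements allow. For p300 the summit differences were 0.598 and 0.105 on the TET2KO background in replicates 1-2 and 3-4, and 0.860 on the WT background. For TET2 they were 0.558 and 0.214 on the P300KO background and 0.819 on the WT background. In each of these comparisons both knockout lists were above both controls, except for the width of P300KO against WT. The gap in summits was slight between P300KO_TET2KO replicate 3 (5.304) and P300KO replicate 3 (5.298). The 2 effects share libraries and are not independent.

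The same lists also differed over all their intervals, not only at these regions. The list mean of summits was 0.146, 0.0147 and 0.163 higher with loss of p300, in the order above, and 0.149, 0.0566 and 0.167 higher with loss of TET2. In replicates 3-4, where WT enters no test, the list means went the other way for P300KO (1.41 summits and 424 bp, against 1.42 and 439 bp in WT), and TET2KO had 1.45 summits and 439 bp. After each value was divided by the mean of its list, differences have no unit. In relative summits the p300 difference was 0.130 and the TET2 difference 0.0991, and the relative widths turned to -0.0318 and -0.0499 (exact permutation, adjusted p = 0.574 for all 4). A change particular to the broad regions was therefore not shown. The median fold enrichment (a ratio to local background) over a list differed too. In replicates 1-2 it was 2.58 and 3.15 in WT and 3.98 and 3.44 in P300KO. There TET2KO had 3.92 and 3.93, and P300KO_TET2KO 4.73 and 5.43. In replicates 3-4 it was 5.55 and 5.43 in WT and 5.45 and 5.36 in P300KO. There TET2KO had 4.57 and 5.50, and P300KO_TET2KO 6.53 and 6.13. How far the differences at members follow this enrichment was not tested. Without WT replicate 1 the adjusted exact permutation p was 0.0988 and 0.120 for p300 (summits and width) and 0.0741 for both TET2 measures, with differences of 0.374 summits and 96.7 bp, and 0.383 summits and 135 bp. Calls also ended without P300KO replicate 1 (p300, adjusted exact permutation p = 0.111 and 0.167) and without TET2KO replicate 1 (TET2, 0.0926 and 0.0864). Without P300KO replicate 2 the p300 width gave 0.0556, and the TET2 summit number gave 0.0556 to 0.0648 without TET2KO replicate 2 or either P300KO_TET2KO list of replicates 1-2.

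Part of the measure is whether neighbouring summits were joined. A member was split over 2 or more intervals in 47.6% and 34.9% of cases in WT replicates 1 and 2, in 21.3% and 36.04% in P300KO, in 22.3% and 31.0% in TET2KO and in 11.7% and 9.45% in P300KO_TET2KO. In the knockouts of replicates 3-4 the shares were 13.3% and 22.01%, 17.4% and 12.3%, and 10.2% and 8.71%. Counted within the bounds of the member, whatever interval a summit belonged to, the p300 difference was 0.315 summits and the TET2 difference 0.289 (adjusted exact permutation p = 0.0370 and 0.0648). The covered width inside the bounds gave 84.9 bp for p300 and 119 bp for TET2 (adjusted exact permutation p = 0.0648 and 0.0370), so that the p300 width and the TET2 summit number were no longer past the threshold. With all overlapping intervals together the p300 width was 99.4 bp and the TET2 summit number 0.312 (adjusted exact permutation p = 0.0556 for both).

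Within replicates 3-4, members whose groups did not overlap were fewer for summits than for width. In 49 members (7.24%) both P300KO_TET2KO lists had more summits than both TET2KO lists, where 3.51% of all WT regions did, and in 34 (5.02%) both had fewer, where 4.01% did. Width was higher in 154 members (22.7%, background 20.5%) and lower in 94 (13.9%, background 17.7%). Against P300KO, summits were higher in 59 (8.71%, background 4.47%) and lower in 25 (3.69%, background 3.01%), and width was higher in 215 (31.8%, background 25.8%) and lower in 58 (8.57%, background 12.9%). Regions with 3 or 4 summits, which are nearer in summit number, gave 5.24% and 4.14% for summits against TET2KO and 7.78% and 3.27% against P300KO. Their shares for width were 19.4% higher and 16.7% lower against TET2KO, and 31.5% and 8.49% against P300KO.

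The members with the most extreme differences between genotypes were chosen by those differences and are described without a test. Rbpms2, an RNA-binding protein gene, had the highest difference on both backgrounds (3.75 summits above TET2KO, 4.5 above P300KO over 4 lists each). Its widest interval had 1, 2, 8 and 7 summits in WT, 2, 3, 7 and 5 in P300KO, 4, 4, 7 and 5 in TET2KO, and 9, 10, 7 and 9 in P300KO_TET2KO. Within its bounds the lists held 4, 6, 8 and 8, then 7, 5, 9 and 6, then 7, 8, 9 and 7, and 9, 9, 7 and 9, so that the differences became 0.75 and 1.75. Most of the first difference at Rbpms2 was thus a matter of joined intervals.

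Maml3, a Notch coactivator gene, went the other way in both counts. The member 1649 bp from its start had 6 summits in all WT and TET2KO lists and 6, 6, 5 and 6 in P300KO, but 5, 4, 4 and 4 in P300KO_TET2KO, and the same numbers within its bounds. No P300KO_TET2KO list reached the value of a TET2KO list there. Stat6, the transducer of interleukin-4 signals, had 5, 6, 8 and 7 in WT, 10, 9, 8 and 9 in P300KO, 9, 9, 9 and 8 in TET2KO, and 8, 9, 7 and 5 in P300KO_TET2KO, a difference from TET2KO of -1.5 that became -1 within bounds. At Dach1, a transcriptional cofactor gene, the widest interval had 4 summits in all P300KO_TET2KO lists and 8, 4, 4 and 8 in TET2KO, while all 8 of these lists held 8 summits within the member. The Dach1 difference of -2 was therefore one of splitting.

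Satb1, a chromatin organizer gene, Dll1, a Notch ligand gene, Fmn2, a formin gene, and Cav1, the caveolin gene, followed Rbpms2 in the difference from P300KO (3.5 to 4 summits). Satb1 had 3, 2, 7 and 3 summits in P300KO and 7, 8, 7 and 7 in P300KO_TET2KO. Within its bounds the difference was 1.25, at Dll1 2, at Fmn2 1.25 and at Cav1 1.25. On the TET2KO background the region nearest Llph, Wdr26, Sos2, a Ras activator gene, and Tm9sf1 followed with 2.25 to 2.75 summits, which became 1 to 1.5 within bounds. The lowest values on that background, besides Dach1, Maml3 and Stat6, were at Muc6 (-2.25), a mucin gene, and at Arrb1 (-1.75), the gene of beta-arrestin. Within bounds Muc6 gave -1 and Arrb1 -1.25. On the P300KO background, Prex1, a Rac activator gene (-1.5), and the regions nearest Hs6st1 (-1.25) and Gsta4 (-1) joined Stat6 (-1.75) and Maml3 (-1.5). Within bounds these were -1 at Prex1, -1.5 near Hs6st1, -0.5 near Gsta4 and -1.25 at Stat6, and Maml3 kept -1.5.

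Of the 62 distal members, 36 were intergenic, 17 lay in introns and 9 touched exons. None had more than 6 summits as the smaller WT number, and the widest of those with 6 lay nearest Ppara (in an intron), Aqp11, Setbp1, Llph and Commd3. The region nearest Aqp11, 9861 bp from the nearest start, had 3, 6, 6 and 7 summits in WT, 5, 6, 6 and 6 in P300KO, 6, 6, 5 and 7 in TET2KO, and 7, 9, 7 and 6 in P300KO_TET2KO. The region nearest Commd3 had 5, 5, 7 and 6 in WT and 7, 6, 6 and 5 in P300KO. It had 8, 6, 7 and 6 in TET2KO and 5, 7, 7 and 7 in P300KO_TET2KO. The region nearest Llph was among the least even, with 1, 1, 6 and 6 in WT and 2, 2, 1 and 4 in TET2KO. P300KO had 6, 3, 5 and 4 there and P300KO_TET2KO 4, 7, 4 and 5. Within the bounds of this region the TET2KO lists held 5, 5, 4 and 5 summits and the WT lists 2, 3, 6 and 6. The P300KO lists held 6, 5, 6 and 6, and the P300KO_TET2KO lists 5, 7, 5 and 6. In an alternative added after seeing the data, distal members alone gave differences of 0.747 summits for p300 and 0.796 for TET2 (adjusted exact permutation p = 0.0185 and 0.0123), and promoter members alone 0.498 and 0.504 (adjusted p = 0.0185 and 0.0247). Whether distal and promoter members differ in this was not tested.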

How the data were processed

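The data were peak lists from ATAC-seq of sorted HSPCs, 1 per library for 16 libraries. The authors trimmed reads with cutadapt 1.9.1, aligned them to mm10 with Bowtie2 2.2.6, removed duplicates, shifted reads for Tn5 and called peaks for each replicate with MACS2 2.1.0. In the deposited lists each line is a summit with its interval, a fold enrichment (a ratio to local background), and the −log10 p and −log10 q of the authors' peak caller. These values are relative to 1 library and were not compared between lists, except that the list medians of fold enrichment are described.

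Lines with the same chromosome, start and end were counted as the summits of 1 interval. Intervals of both WT lists that shared at least 1 bp and had 5 or more summits were joined into a member, each of 1 interval per list. In every library a member took the summit number and width of its widest overlapping interval (0 where none overlapped), and the library's value was the mean over all 677 members. Peak lists give no counts of reads, so no interval for counting error can be given, and p-values measure the spread between libraries. Deposit set and background were strata of two-sided exact permutation tests, each over 12 libraries in 3 strata of 2 against 2 (216 arrangements), adjusted by Benjamini-Hochberg over 4 tests at 0.05. Starts and exons were those of GENCODE M21 (mm10), and a promoter was within 3 kb of any start. Sequence came from the RefSeq copy of GRCm38.p6, whose chromosomes contain all intervals. Scripts ran in Python 3.11.15 with pysam 0.24.0, pandas 2.3.3 and numpy 2.4.6, figures were drawn in matplotlib 3.10.9, and the test was tested on simulated data.

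Named members were the 12 with the highest smaller WT summit number (ties by mean width), up to 6 per gene list, the 5 highest and 5 lowest differences of P300KO_TET2KO from TET2KO and from P300KO over 4 lists each, and the 5 distal members that came first in the same order. A member bears the name of the protein-coding gene whose start it holds or is nearest to. The members, gene lists and tests were chosen with earlier results of these data known. Alternatives changed the threshold, peak strength, overlap, promoter distance, counting of summits, scaling, summary, deposit set, blocks and libraries. Chromosomes X and Y and unplaced sequences were left out. The count over the RNA processing factors is not reported here.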

Additional observations from a re-analysis of the deposited data

Results flagged for a closer look

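Some libraries stood apart from the other libraries of their genotype in the share of members found. WT replicate 1 had an interval at 97.8% of the members, P300KO replicate 2 at 99.6% and TET2KO replicate 2 at 99.6%, and in each case the gap to the nearest of the other libraries made up most of the range of the genotype. For P300KO and TET2KO the other 3 libraries were all at 100%, so that any missed member makes up the whole range, and nothing is read from these gaps. In all, 24 combinations of genotype and measure were examined, and among values that are not at a limit about 1 of 20 would stand apart by chance. Mean summit number and mean width gave no such library. For WT this check cannot speak for replicate 1, since members were chosen by the summit numbers of replicates 3 and 4. The shares of 100% found in WT replicates 3 and 4 also follow from the rule. WT replicate 1 is also the list with the lowest mean summit number and width over all intervals.

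Chromosome X was not part of the rule. The same rule applied there gave 19 regions with 5 or more summits in both WT lists of replicates 3-4, and they enter no value above.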

How the results depend on the processing

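Divided by the mean of each list, the 4 effects lost their call and both widths changed sign. The differences, which then have no unit, were 0.130 in relative summits and -0.0318 in relative width for p300, and 0.0991 and -0.0499 for TET2. The 5 members with 8 or more summits gave 0.467 summits and 67.7 bp for p300 and 0.967 summits and 372 bp for TET2, none past the threshold. Deposit set 1 alone gave 0.729 summits and 201 bp, and 0.688 summits and 238 bp. Its smallest possible p is above the threshold, as is that of deposit set 2 alone, which gave 0.105 summits and 37.5 bp, and 0.214 summits and 77.5 bp. The median over members gave 0.5 summits for both effects, no longer past the threshold. All overlapping intervals together gave 99.4 bp for p300 and 0.312 summits for TET2, and counts inside the bounds of the member 84.9 bp and 0.289 summits, again not past it. The cause of these losses was not tested. With 4 or more summits, or a −log10 q of at least 2, all 4 effects kept their direction and call.

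Leaving out 1 library at a time gave 0.374 to 0.668 summits and 96.7 to 196 bp for p300, and 0.383 to 0.677 summits and 135 to 234 bp for TET2. None of the 48 values changed sign and 36 stayed past the threshold.

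Replicate numbers did not pair the libraries: the correlation of same-numbered deviations over members was -0.0892 to 0.0476 in the 6 comparisons. With the replicate block the differences were the same, 0.521 summits and 147 bp for p300 and 0.530 summits and 184 bp for TET2. The adjusted exact permutation p was 0.0417 for 3 of them and 0.0625 for the p300 width.

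The number of members was 2563 with 4 or more summits, 157 with 6 or more and 5 with 8 or more. It was 603 with a −log10 q of at least 2. The promoter share was 88.0% within 1 kb, 86.7% with protein-coding starts only, 86.9% for 4 or more summits and 100% for 8 or more. With 50% of the member covered, the share found was 95.1% in replicates 1-2 (99.5% otherwise) and 99.95% in the knockouts of replicates 3-4 (100%). Depth per library is unknown, and a weak summit missing from a list may be one that its depth could not show.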
